A study of Arabidopsis thaliana with 42 samples.

Results

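AT5G62080, AT5G07230 and AT3G52130 are 3 Arabidopsis thaliana genes that go by the working name of tapetum genes raised in the mutant ap2-6. They were chosen by their high signals in ap2-6 inflorescence apices against wild-type Col-0, so their levels in ap2-6 are given below as a description, with no test. Each is read by 1 probe set of the Affymetrix array, and these 3 probe sets were followed over all 14 groups, out of 22810 probe sets on the array and 13286 genes with a probe set of their own. AT5G62080 and AT5G07230 lie on chromosome 5 and AT3G52130 on chromosome 3 of the TAIR10.1 annotation, which gives all 3 as protein-coding genes without a symbol or a stated function.

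The series holds 42 arrays of total RNA from shoots and stems, in 14 groups of 3. Wild-type Col-0 gave 7 of the groups: hypocotyl, vegetative shoot apex with young leaves, vegetative shoot apex, shoot apex at the transition before bolting, the second internode of the stem, the first node, and inflorescence apex after bolting. In the other 7, inflorescence apices came from plants of the Col-0 background with a mutant allele, clv3-7 of the stem cell regulator CLV3, or lfy-12, ap1-15 and ufo-1, or ap2-6, ap3-6 and ag-12. Growth was on soil at 23 °C and 65% relative humidity, with the light never switched off. The labels state for Col-0 alone that the inflorescence sample held flowers up to stage 7 or 8, so genotype and the age of the sampled flowers cannot be told apart. Whether the 3 samples within a group are different plants is not stated, so the p-values below cover the spread among the samples only, technical or biological.

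The tapetum is the innermost wall layer of the anther, next to the pollen mother cells. It nourishes the developing pollen, secretes the enzymes and precursors from which the pollen wall and coat are built, and then breaks down. Its fate is set by the receptor kinase EMS1 and the transcription factor SPL, and its later programme runs through regulators such as AMS, a bHLH transcription factor. Among the mutated genes, AP2, AP1, AP3 and AG encode transcription factors that specify floral organs, and AP3 and AG are both needed for stamens, the organs that carry the anthers. LFY gives a young meristem its floral identity, UFO is an F-box protein that acts with LFY to switch on AP3, and CLV3 is a secreted peptide that limits the size of the stem cell pool.

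The values are MAS5 signals, a linear measure of probe set brightness. The median signal was 36.3 to 45.7 per array, and the correlation between arrays of a group was 0.986 to 0.994. Differences are on the scale log2(signal + 8.01), where 8.01 is the 25th percentile of signal on the median array, and this offset understates changes of dim probe sets. The Col-0 inflorescence arrays and those of the first node stood apart in the dap poly-A control, a bacterial transcript used as a spike-in, at a mean log2 value of 7.85 and 8.28 against 3.09 to 3.63 on the arrays of the other 12 groups. Their titles also carry an extra digit. The 3′ to 5′ ratio of 3 Arabidopsis control transcripts, a measure of RNA integrity and labelling, was 1.66 ± 0.0023 on the log2 scale in ap2-6, 1.86 ± 0.0766 in Col-0 and 2.07 ± 0.138 in ufo-1 (SD, n = 3).

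All 3 genes gave a clear signal in ap2-6 and little elsewhere. AT5G62080 read 192, 204 and 188 on the 3 ap2-6 arrays, a mean of 194.9 ± 8.29 (SD, n = 3). AT5G07230 read 84.4, 81.2 and 77.5, a mean of 81.0 ± 3.47, and AT3G52130 read 90.2, 81.4 and 84.8, a mean of 85.5 ± 4.44. Within its own array the first gene lay between the 82.7th and 84.4th percentile of the probe sets, the second between the 62.1st and 64.4th, and the third between the 63.6th and 65.9th. The 3 ap2-6 arrays thus agreed closely for each gene.

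On the other 39 arrays no value came near these. AT5G62080 had a median of 4.90 there and a maximum of 16.3, on an ap1-15 array, so its lowest ap2-6 signal was 11.5 times the highest signal elsewhere. AT5G07230 had a median of 1.28 and a maximum of 14.5, on a ufo-1 array, and its lowest ap2-6 signal was 5.33 times that maximum. AT3G52130 had a median of 1.60 and a maximum of 6.66, on a clv3-7 array, and its lowest ap2-6 signal was 12.2 times that maximum. Signals below the offset were found on 28 of the 39 arrays for AT5G62080, on 36 for AT5G07230 and on all 39 for AT3G52130. In these bulk samples, fewer cells of a type and less RNA per cell cannot be told apart.

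**Figure D1:**
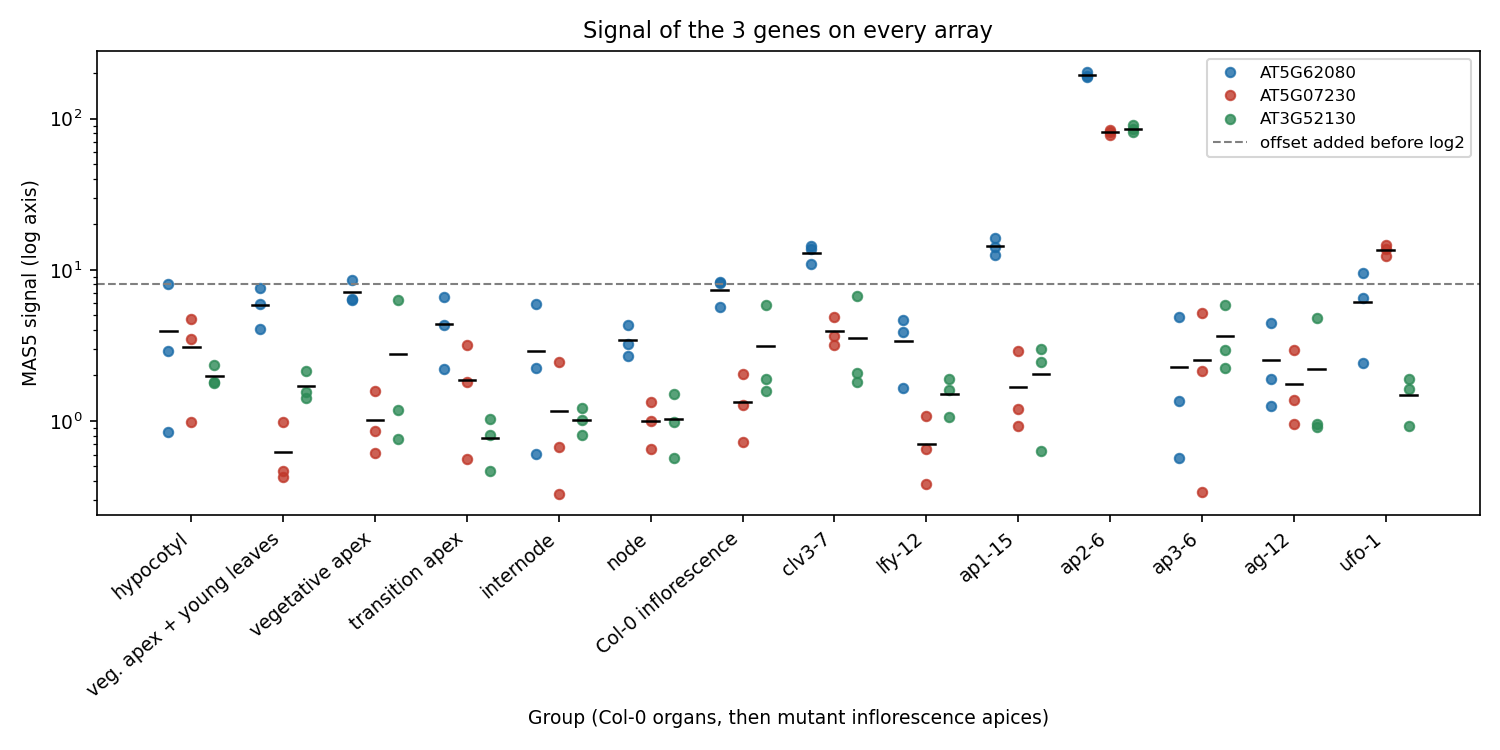
MAS5 signal (log axis) of AT5G62080, AT5G07230 and AT3G52130 on each of the 42 arrays, by group; points are arrays, black bars group means, and the dashed line the offset of 8.01. The ap2-6 arrays read 188 to 204, 77.5 to 84.4 and 81.4 to 90.2, and the highest signals elsewhere are 16.3, 14.5 and 6.66.

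Described against Col-0, the log2 difference of ap2-6 was 3.72 for AT5G62080, 3.25 for AT5G07230 and 3.09 for AT3G52130, the choosing contrast itself. These were the largest, the third largest and the fourth largest of 14630 tested probe sets, of which 20.7% were called in that comparison at an adjusted p under 0.05, and nothing is read from that share for the chosen genes. The sizes depend on the offset, because the Col-0 signals are so low. With the offset divided by 4 they were 4.40, 4.65 and 4.19, and with it multiplied by 4 they were 2.53, 1.76 and 1.74. The distance from ap2-6 to the nearest and farthest other mutant ran from 3.19 (ap1-15) to 4.32 (ap3-6) for AT5G62080, from 2.05 (ufo-1) to 3.35 (lfy-12) for AT5G07230, and from 3.01 (ap3-6) to 3.30 (ufo-1) for AT3G52130.

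The 3 genes were set against each other over the groups. Over the 14 group means of log2(signal + 8.01), Pearson's r was 0.90 between AT5G62080 and AT5G07230, 0.95 between AT5G62080 and AT3G52130, and 0.92 between AT5G07230 and AT3G52130. Without the ap2-6 group the same values were 0.14, 0.33 and 0.04 over 13 groups, and Spearman's rho over all 14 groups was 0.30, 0.36 and 0.39. These are descriptions across groups run on one array type, and the high values of r rest on the ap2-6 group. Since nearly all signals of AT5G07230 and all those of AT3G52130 outside ap2-6 lie below the offset, the low values of r there do not show that the patterns differ.

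Contrasts among the groups other than ap2-6 use no ap2-6 value, although the 3 genes entered the fit because their ap2-6 arrays, and no others, cleared the filter on low signals, the 40th percentile of each array. Each gene was tested with limma in 21 contrasts, 6 mutants against Col-0 and 15 pairs of those mutants, with adjustment over all 14630 probe sets. The Col-0 arrays also served in the contrast that chose the genes. AT5G62080 was called in 11 of the 21 contrasts, AT5G07230 in 6 and AT3G52130 in none.

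AT5G62080 was higher in clv3-7 and ap1-15 than in the mutants lfy-12, ap3-6 and ag-12. It read 14.5, 13.7 and 10.9 in clv3-7 (13.01 ± 1.89, SD, n = 3) and 16.3, 14.1 and 12.5 in ap1-15 (14.3 ± 1.94). It read 8.33, 5.68 and 8.15 in Col-0 (7.39 ± 1.48) and 2.402, 9.56 and 6.49 in ufo-1 (6.15 ± 3.59). The 6 arrays of clv3-7 and ap1-15, at 10.9 to 16.3, lay above all 33 arrays of the groups other than these and ap2-6, where the maximum was 9.56. Groups without overlap are a description, here and below. The share of all probe sets that separate in the same way was not counted.

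At the low end, AT5G62080 read 1.66, 3.89 and 4.66 in lfy-12, 1.35, 4.90 and 0.571 in ap3-6, and 1.26, 4.47 and 1.90 in ag-12. These 9 arrays, at 0.571 to 4.90, did not overlap with those of Col-0, clv3-7 or ap1-15, but they overlapped with those of ufo-1. The clv3-7 and ap1-15 signals lay between the 29.4th and 37.5th percentile of their arrays, so these differences are among dim probe sets.

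Against clv3-7, AT5G62080 was lower by a log2 difference of -0.89 ± 0.19 in lfy-12 (SE, limma, adjusted p 7.0e-04), where 32.2% of all tested probe sets were called. The difference was -1.05 in ap3-6 (adjusted p 1.1e-04, limma, 33.6% called) and -1.002 in ag-12 (adjusted p 1.7e-04, limma, 35.1% called). Against ap1-15 it was -1.14 in ap3-6 (adjusted p 3.1e-05, limma, 35.1% called) and -1.09 in ag-12 (adjusted p 5.0e-05, limma, 36.3% called). The gene was higher in ap1-15 than in lfy-12 by 0.97 (adjusted p 2.3e-04, limma, 31.5% called). These 6 calls held under every alternative in which they were refitted. None of these left out an ap2-6 array, because the gene then fails the filter.

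The ufo-1 apices differed from both high groups by less. The log2 difference from clv3-7 was -0.60 ± 0.19 (limma, adjusted p 0.018, 31.0% of probe sets called) and that from ap1-15 was -0.68 ± 0.19 (limma, adjusted p 0.0066, 33.6% called). Without ufo-1 replicate 1 these became -0.39 (adjusted p 0.14, limma) and -0.48 (adjusted p 0.068, limma), and the first was also lost without clv3-7 replicate 1 (adjusted p 0.066, limma) or 2 (adjusted p 0.054, limma).

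The difference between ap1-15 and clv3-7 was 0.08 with a 95% interval of -0.32 to 0.49 (limma, adjusted p 0.79, 24.7% called). The remaining AT5G62080 contrasts among mutants were not called either. They set ap3-6 and ag-12 against lfy-12, with 27.4% and 10.4% of probe sets called, ag-12 against ap3-6 with 25.6%, and ufo-1 against lfy-12, ap3-6 and ag-12 with 15.7%, 18.4% and 19.7%.

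Against Col-0, AT5G62080 was called in 3 of 6 mutants, each near the threshold. The log2 difference was 0.53 ± 0.19 in ap1-15 (limma, adjusted p 0.037, 27.5% of probe sets called), -0.60 ± 0.19 in ap3-6 (limma, adjusted p 0.022, 23.8% called) and -0.55 ± 0.19 in ag-12 (limma, adjusted p 0.033, 26.9% called). All 3 calls were lost when any of several single arrays was left out. Without Col-0 replicate 1 the adjusted p values from limma were 0.057, 0.079 and 0.10, and without Col-0 replicate 3 they were 0.059, 0.071 and 0.094. The ap1-15 call was also lost without Col-0 replicate 2 (adjusted p 0.14, limma) and without ap1-15 replicates 1 (0.12) or 2 (0.071).

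The ap3-6 call was lost without ap3-6 replicates 1 (adjusted p 0.077, limma) or 3 (0.11), and the ag-12 call without ag-12 replicates 1 (adjusted p 0.11, limma) or 3 (0.090). The values that did not pass were 0.45 in clv3-7 (adjusted p 0.10, limma, 19.1% called), -0.44 in lfy-12 (adjusted p 0.093, limma, 27.0% called) and -0.15 in ufo-1 (adjusted p 0.64, limma, 18.8% called). The part in these contrasts of what sets the Col-0 arrays apart in the dap control was not tested, and the contrasts among mutants above do not use those arrays. The Col-0 arrays also served in choosing the genes, so the contrasts with Col-0 are not separate support.

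AT5G07230 had its second level in ufo-1. It read 14.5, 12.4 and 13.8 there (13.6 ± 1.11, SD, n = 3), between the 31.6th and 35.9th percentile of the array. It read 0.723, 2.03 and 1.28 in Col-0, 3.63, 3.19 and 4.90 in clv3-7, and 2.13, 5.16 and 0.341 in ap3-6. The ufo-1 arrays lay above all 36 arrays of the groups other than ufo-1 and ap2-6, where the maximum was 5.16 in ap3-6.

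In the other 3 mutants AT5G07230 stayed in the range of the dimmest groups. It read 0.655, 1.08 and 0.383 in lfy-12, 2.89, 1.19 and 0.927 in ap1-15, and 1.37, 2.97 and 0.953 in ag-12, all overlapping with Col-0.

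The log2 difference of ufo-1 was 1.21 ± 0.18 from Col-0 (SE, limma, adjusted p 2.4e-05) and 0.86 ± 0.18 from clv3-7 (limma, adjusted p 7.3e-04). It was 1.31 from lfy-12 (limma, adjusted p 7.6e-06) and 1.16 from ap1-15 (limma, adjusted p 1.3e-05). It was 1.06 from ap3-6 (limma, adjusted p 9.4e-05) and 1.15 from ag-12 (limma, adjusted p 4.4e-05). The share of probe sets called in these 6 contrasts was 18.8%, 31.0%, 15.7%, 33.6%, 18.4% and 19.7%, in that order. The Col-0 arrays served in choosing the genes, so the contrast of ufo-1 with Col-0 is not separate support. The contrasts of ufo-1 with the other mutants do not use those arrays. All 6 calls held under every alternative in which they were refitted, and they were the only contrasts called for this gene. Here too no refit left out an ap2-6 array, because the gene then fails the filter. The ufo-1 arrays also had the highest 3′ to 5′ control ratio of the 14 groups, whose part in the result was not tested.

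AT3G52130 showed no called difference among the groups other than ap2-6. It read 5.86, 1.58 and 1.90 in Col-0, 1.82, 6.66 and 2.08 in clv3-7, and 5.81, 2.94 and 2.25 in ap3-6. It read 2.47, 2.99 and 0.634 in ap1-15, 1.89, 1.07 and 1.60 in lfy-12, 0.957, 4.79 and 0.911 in ag-12, and 0.920, 1.63 and 1.89 in ufo-1. The groups overlapped, apart from ap3-6 with lfy-12 and with ufo-1. With limma, 0 of 21 contrasts were called, the adjusted p ran from 0.34 to 0.99, and 0 had an unadjusted p under 0.05. The log2 differences ran from -0.29 to 0.28, and that of ufo-1 from Col-0 was -0.21 with a 95% interval of -0.65 to 0.24. All signals of AT3G52130 outside ap2-6 lie below the offset, where changes are understated. A difference between AT3G52130 and AT5G07230 in that contrast was not tested.

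**Figure D2:**
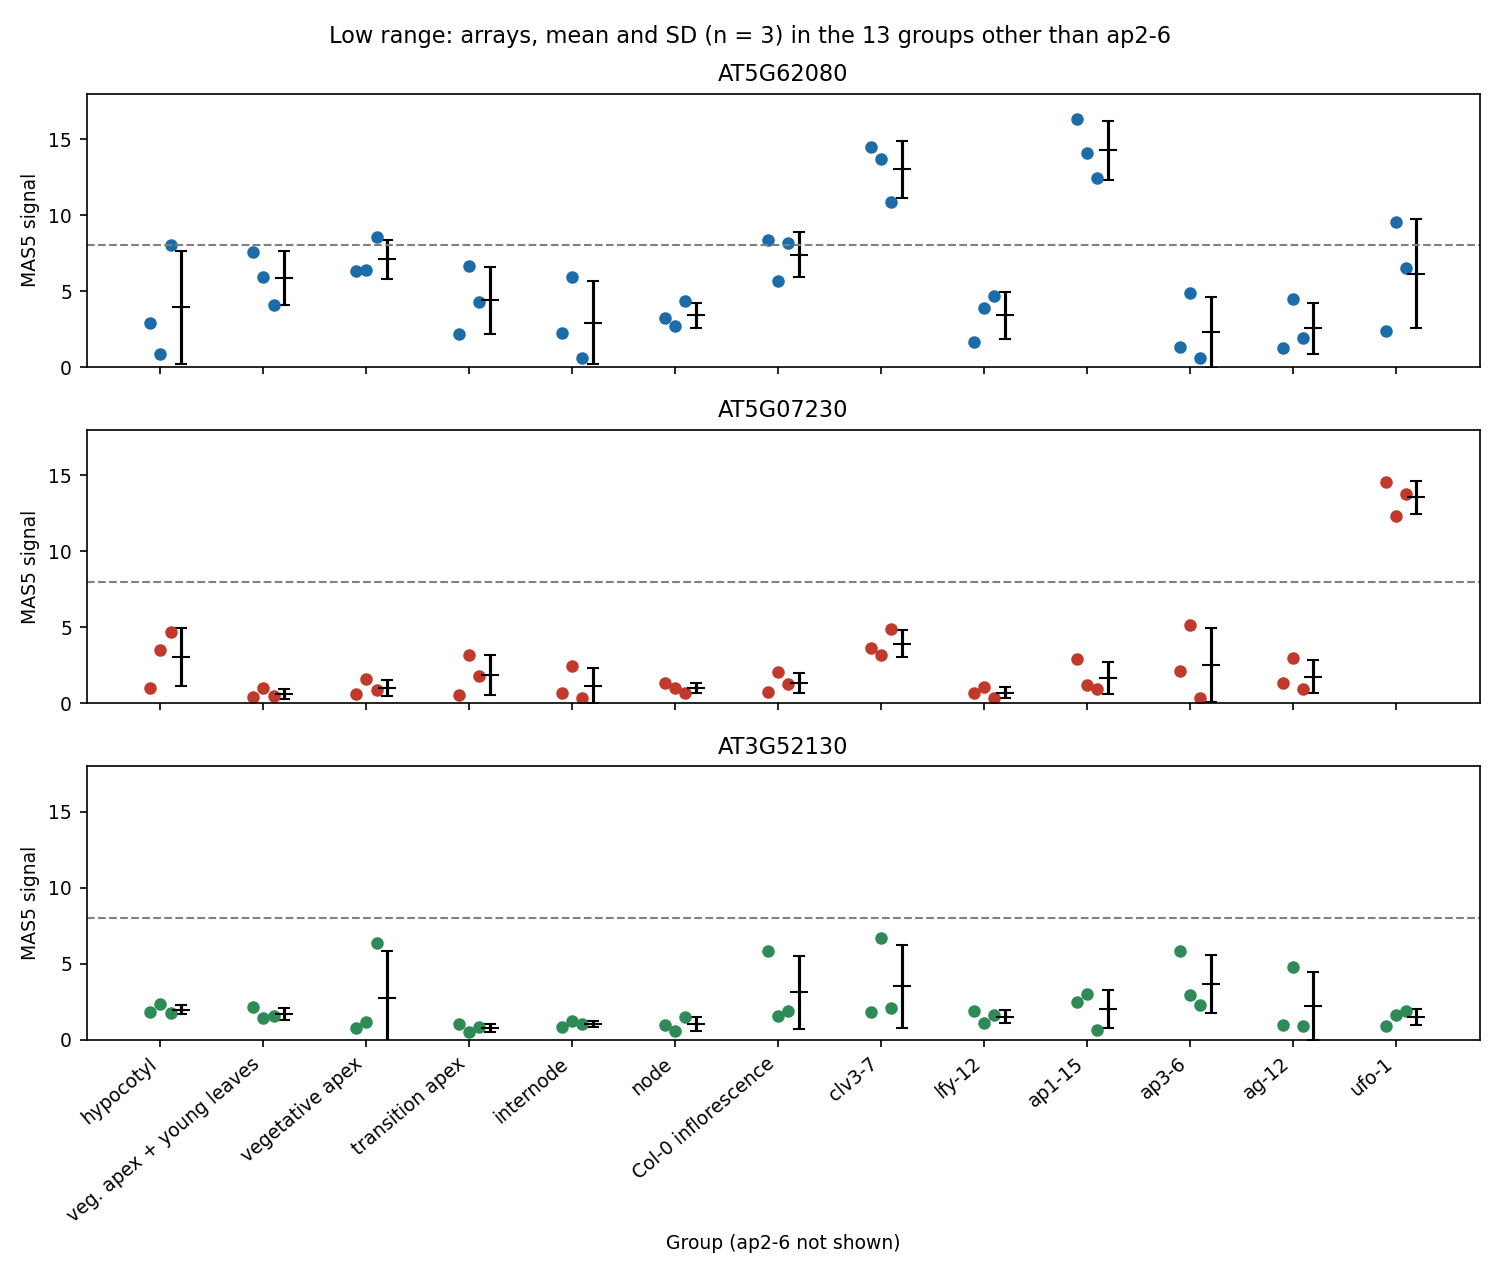
MAS5 signal (linear axis, 0 to 18) of the 3 genes in the 13 groups other than ap2-6; points are arrays, black marks the mean with SD (n = 3), and the dashed line is the offset of 8.01. AT5G62080 exceeds 10 in clv3-7 and ap1-15, AT5G07230 in ufo-1, and AT3G52130 in no group.

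In the 6 Col-0 organs other than the inflorescence apex, all 3 genes gave dim signals. AT5G62080 ranged from 0.602 to 8.55 over these 18 arrays, with group means from 2.92 in the internode to 7.08 in the vegetative apex. AT5G07230 ranged from 0.331 to 4.70, with its highest mean, 3.06 ± 1.90, in the hypocotyl. AT3G52130 ranged from 0.470 to 6.33, and the latter value was a single vegetative apex array whose partners read 0.762 and 1.19.

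None of the 3 genes passed the filter on low signals over the 21 Col-0 arrays, so organs were not tested for them in the main fit. Ordered by mean signal, ap2-6 came first for all 3 genes. It was followed by ap1-15, clv3-7 and Col-0 inflorescence for AT5G62080, with ap3-6 last. For AT5G07230 it was followed by ufo-1, clv3-7 and hypocotyl, with the vegetative apex with young leaves last. For AT3G52130 it was followed by ap3-6, clv3-7 and Col-0 inflorescence, with the transition apex last. The order was the same on the linear and on the log2 scale, and neighbours in it had overlapping arrays apart from ap2-6 and the next group, clv3-7 and Col-0 for AT5G62080, and ufo-1 and clv3-7 for AT5G07230.

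Genes of anther development, of the carpel and ovule and of floral organ identity were read from 9 lists with 93 entries. Of these, 20 matched a probe set with 1 annotated gene and 12 passed the filter in the inflorescence fit. The annotation used here gave 1 gene to 13513 of the 22746 probe sets, and an entry with no match was not analysed here. Of these 12, 5 were higher and 3 lower in ap2-6 than in Col-0, where 10.2% of all probe sets were called higher and 10.5% lower. Their median log2 difference was 0.23, beside 0.0032 over all tested probe sets. Of the 9 tested genes from the anther and pollen lists alone, AMS, AT1G33430, SWEET8 and EMS1 were called higher and ROXY1 and SWEET13 lower, which is 4 and 2 of 9, with a median of 0.25. Both counts include AMS, which passed the filter through the ap2-6 arrays only, so its call adds no separate support to them. The lists were drawn up with results of these data known, and the counts are a description. The dap control had a mean log2 value of 7.85 in Col-0 and 3.34 in ap2-6. Genotype and what sets the Col-0 arrays apart there cannot be told apart in any contrast of a mutant with Col-0 below.

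The tapetum regulator list had 11 entries, 3 of them matched, with AMS alone passing the filter, again through the ap2-6 arrays only. AMS read 28.2, 26.1 and 30.4 in ap2-6 and 10.2, 9.27 and 6.33 in Col-0, with no overlap. Its log2 difference was 1.13 ± 0.27 (limma, adjusted p 0.0036), and since it entered the test through ap2-6, that call is not separate support. Over the other 6 mutants AMS stayed between 0.270 and 12.6. The other regulators, named here by locus and not tested, read 12.4, 17.999 and 12.8 (AT1G06170) and 5.39, 10.2 and 6.74 (AT2G31210) in ap2-6. In Col-0 they read 4.996, 7.57 and 8.78, and 3.01, 4.18 and 3.78. AT1G06170 also read 12.7 to 14.3 in clv3-7, where the arrays overlapped with ap2-6.

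In the list for sporopollenin and pollen wall, 3 of 20 entries were tested, 2 of them higher and 1 lower in ap2-6. AT1G33430 read 147, 138 and 132 in ap2-6 against 28.1, 27.7 and 21.01 in Col-0, a log2 difference of 2.13 ± 0.17 (limma, adjusted p 2.1e-10). SWEET8, a sugar transporter that pollen wall formation requires, read 115, 106 and 102 against 33.7, 39.4 and 30.4, a difference of 1.45 ± 0.13 (limma, adjusted p 3.8e-09). Neither gene overlapped between the groups, and against the mean of the other 6 mutants, a comparison chosen after seeing the data, the differences were 2.16 and 2.05.

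SWEET13, a sucrose transporter of the same family, went the other way. It read 14.4, 19.4 and 11.7 against 28.4, 27.0 and 27.8 (-0.64, limma, adjusted p 0.0082). That call was lost without ap2-6 replicate 3 (-0.53, limma, adjusted p 0.057) and against the mean of the other 6 mutants (-0.07, limma, adjusted p 0.78). SHT, which adds hydroxycinnamic acids to spermidine for the pollen coat, was not tested and read 7.27, 10.7 and 6.84 in ap2-6 against 4.36, 9.33 and 1.12 in Col-0.

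Among the anther cell fate genes, 4 of 9 list entries were tested, with 1 higher and 1 lower. EMS1, the receptor kinase that specifies the tapetum, read 364, 352 and 390 in ap2-6 and 292, 306 and 355 in Col-0, with overlap. Its difference of 0.21 ± 0.08 (limma, adjusted p 0.045) was lost without Col-0 replicates 1 (0.16, adjusted p 0.23, limma) or 2 (0.19, adjusted p 0.14) and without ap2-6 replicates 1 (0.22, adjusted p 0.086) or 3 (0.17, adjusted p 0.18). It was also lost with no filter, with all 42 arrays in the fit and with the replicate letter as a block.

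ROXY1, a glutaredoxin needed for petals and anthers, read 91.0, 49.9 and 65.9 against 118, 114 and 111 (-0.70, limma, adjusted p 0.0017), and -0.27 (limma, adjusted p 0.11) against the mean of the other 6 mutants. SPL read 30.1, 34.8 and 31.6 against 22.0, 25.6 and 21.6, and its difference of 0.37 did not pass (limma, adjusted p 0.21). ROXY2, a glutaredoxin related to ROXY1, read 19.2, 21.1 and 31.6 against 23.3, 18.8 and 14.2, with overlap, and did not pass the test either (0.25, limma, adjusted p 0.49).

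Genes of other cell types the apices could hold gave no common direction. SPO11-1, which makes the DNA breaks of meiosis, differed by -0.06 (limma, adjusted p 0.80). The meiotic cyclin gene SDS, not tested, read 16.0 to 18.04 in ap2-6 against 9.83 to 12.4 in Col-0. Its ap2-6 arrays overlapped with those of ag-12 (17.4 to 21.1), ap1-15 (15.7 to 23.3) and ap3-6 (14.7 to 18.7). They also overlapped with lfy-12 (11.7 to 18.9) and ufo-1 (12.4 to 16.97), but lay above clv3-7 (7.45 to 13.5). The SDS level was thus not particular to ap2-6. MGH3, a histone gene of the male gametes and the only pollen grain entry that was matched, read 3.10 to 7.65 in ap2-6 and 1.86 to 9.98 in Col-0. In the carpel and ovule list, SPT rose by 0.38 (limma, adjusted p 1.1e-04), NGA1 differed by -0.32 (limma, adjusted p 0.11), and the ovule gene INO read 1.70 to 11.9 in ap2-6 and 3.03 to 9.09 in Col-0.

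The remaining lists had few readings. UFO, which promotes petal and stamen identity and was the only floral organ identity entry matched, read 8.48, 1.65 and 1.76 in ap2-6 against 29.2, 26.4 and 27.4 in Col-0 (-1.62, limma, adjusted p 1.1e-07). Of 16 entries for tapetum products and pollen coat, 2 were matched and neither was tested. AT5G52160 read 11.1, 23.2 and 16.8 in ap2-6 against 4.99, 4.96 and 3.30 in Col-0, and AT1G75920 read 1.03, 6.65 and 4.15 against 5.03, 2.53 and 1.19. None of the 3 endothecium entries was matched.

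**Figure D3:**
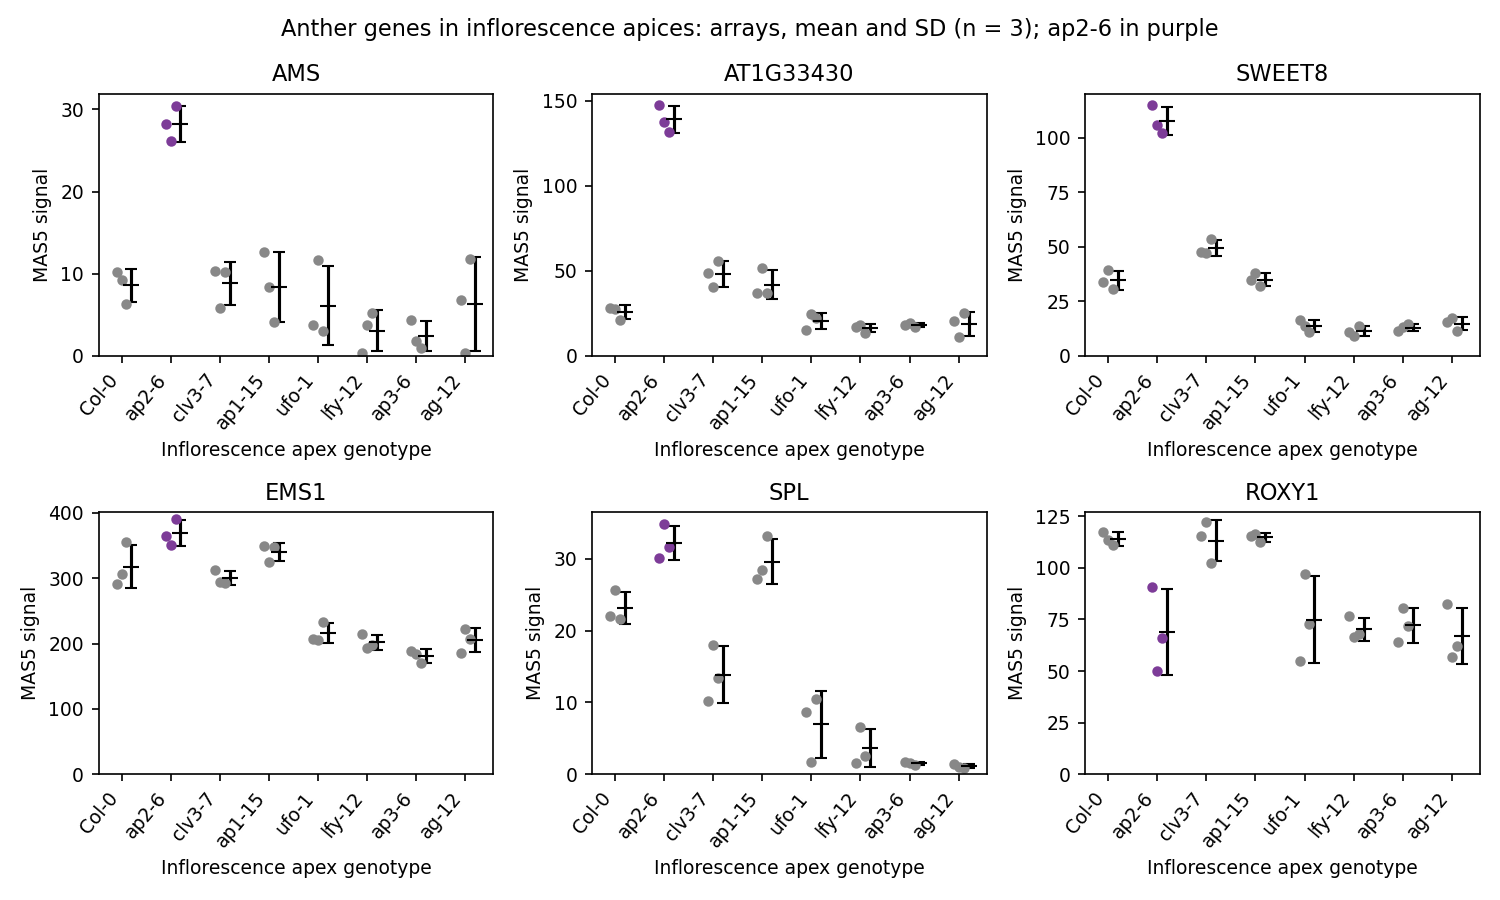
MAS5 signal (linear axes from 0) of AMS, AT1G33430, SWEET8, EMS1, SPL and ROXY1 in the 8 inflorescence apex genotypes; points are arrays, black marks the mean with SD (n = 3), and ap2-6 is in purple. AT1G33430 reads 132 to 147 and SWEET8 102 to 115 in ap2-6, above every other array shown for them, while EMS1 overlaps between ap2-6 and Col-0.

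The 12 tested list genes were also read in the other mutants. In lfy-12, none was higher and 8 were lower than Col-0, where 27.0% of all probe sets were called in either direction. In ap3-6, 1 was higher and 6 lower beside 23.8% of all probe sets, in ag-12 none and 7 beside 26.9%, and in ufo-1 none and 6 beside 18.8%. SPL, EMS1, ROXY1, ROXY2 and SWEET8 were lower in all 4 of these mutants. SPL, for example, read 1.70, 1.54 and 1.22 in ap3-6, a log2 difference from Col-0 of -1.71 (limma, adjusted p 3.3e-07). In ufo-1 it read 8.68, 1.65 and 10.4 and differed by -1.11 (limma, adjusted p 2.5e-04). Of the 3 genes, AT5G62080 differed by -0.44 in lfy-12, -0.60 in ap3-6, -0.55 in ag-12 and -0.15 in ufo-1, of which the ap3-6 and ag-12 differences passed the test. AT5G07230 was higher than Col-0 in the ufo-1 samples, and AMS in them did not differ detectably from Col-0 (-0.28, limma, adjusted p 0.53).

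The list genes were read as well in clv3-7 and ap1-15, the groups with the highest AT5G62080 after ap2-6. In clv3-7, 3 list genes were higher and 1 lower than Col-0, beside 19.1% of all probe sets called. In ap1-15, 2 were higher and 2 lower, beside 27.5%. The 4 calls of 12 in each are not far from those shares, and nothing about the lists is read from them. AT1G33430 was among those that rose in both, reading 48.4, 40.5 and 55.4 in clv3-7 (0.74, limma, adjusted p 0.0023) and 36.9, 51.6 and 36.6 in ap1-15 (0.56, limma, adjusted p 0.013). SPT also rose in both, and SWEET8 in clv3-7 (0.44, limma, adjusted p 0.020). The lower calls were NGA1, of the same list as SPT, in both mutants, and UFO in ap1-15 (-0.65). All these contrasts share the Col-0 arrays.

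**Figure D4:**
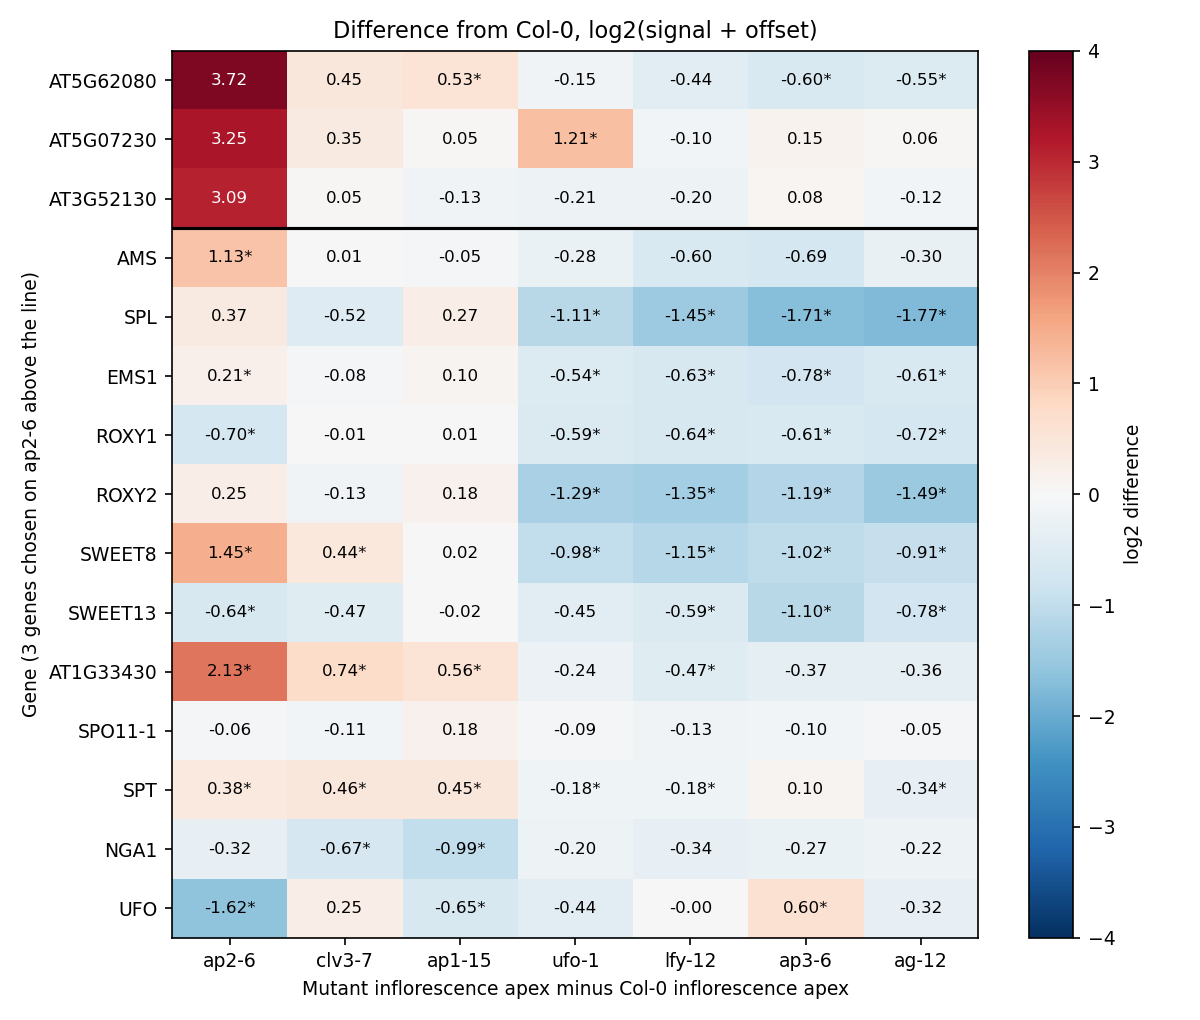
Differences of each mutant inflorescence apex from Col-0 on the log2(signal + 8.01) scale, for the 3 genes (above the line) and the 12 tested list genes; an asterisk marks an adjusted p under 0.05 (limma), and the 3 genes have no test in the ap2-6 column. The ap2-6 column holds 3.72, 3.25 and 3.09 for the 3 genes and 2.13 for AT1G33430, and SPL falls to -1.71 in ap3-6.

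In the wild-type apex, the lists could also be followed from the transition to the inflorescence stage, where 32.1% of probe sets were called in either direction. The 2 groups also differ in the dap control, at a mean log2 value of 3.25 at transition and 7.85 in the inflorescence. Stage and what sets the inflorescence arrays apart there cannot be told apart. Of 8 list genes tested, 5 were higher in the inflorescence, 0 were lower and 3 did not pass. SWEET8 rose by 1.18 (limma, adjusted p 7.0e-07), ROXY2 by 0.94 (limma, adjusted p 0.017) and EMS1 by 0.61 (limma, adjusted p 2.1e-05). In this fit SWEET8 passed the filter through the Col-0 inflorescence arrays only, where it is high. Its call is therefore not separate support, and the count of 5 includes it. SWEET13 rose by 0.61 (limma, adjusted p 2.4e-04) and NGA1 by 0.69 (limma, adjusted p 0.012). ROXY1 (0.35, limma, adjusted p 0.20), SPT (0.16, adjusted p 0.24) and UFO (0.18, adjusted p 0.31) did not pass. AT5G62080 read 2.20, 6.65 and 4.30 at transition and 5.68 to 8.33 in the Col-0 inflorescence, with overlap. AT5G07230 (0.558, 3.19 and 1.82) overlapped as well. AT3G52130 read 1.03, 0.470 and 0.811 at transition, below its Col-0 inflorescence arrays but also below the offset on all of them. It was not tested in the main fit.

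The genes whose pattern was most like each of the 3 were ranked by Pearson's r over the 14 group means, among 8019 probe sets with 1 annotated gene. For AT5G62080 they were AT3G07450 (r = 0.98), AT1G66850 (0.96), AT3G52130 (0.95), AMS (0.95) and AT1G33430 (0.93). For AT5G07230 they were LCR66 (0.96), which the annotation places among the plant defensins, AT1G02813 (0.94), AT4G20420 (0.93), AT3G52130 (0.92) and AT5G16920 (0.91). For AT3G52130 they were AT5G62080, AT3G07450 (0.95), AT5G16920 (0.94), AT4G20420 (0.93) and LCR66 (0.92). All of them had their highest group mean in ap2-6, which follows largely from ranking against genes chosen for their high signals there.

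The ranking was repeated without ap2-6, where most signals of the 3 genes lie below the offset, and no difference between the genes was tested. Ranked again without ap2-6, 3 of the 5 genes named for AT5G62080 remained, 2 of 5 for AT5G07230 and 0 of 5 for AT3G52130, and by Spearman's rho over 14 groups 1, 0 and 0 remained. The 2 genes described next were chosen after their values were seen. AT3G07450 read 86.4 to 94.0 in ap2-6, 11.5 to 22.9 in ap1-15, 8.99 to 12.8 in clv3-7 and 5.13 to 9.78 in Col-0. AT1G02813 read 44.8 to 48.9 in ap2-6, 19.3 to 24.5 in ufo-1 and 1.14 to 7.63 in Col-0. Its ufo-1 arrays thus lay above its Col-0 arrays, as they did for AT5G07230.

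The neighbours of the 3 genes on the chromosome were read in the same comparison of ap2-6 with Col-0, where 10.2% of all tested probe sets were called higher and 10.5% lower. Within 20 protein-coding genes on either side in TAIR10.1 order, 11 neighbours of AT5G62080 were tested. Of these, 2 were higher and 1 lower in ap2-6 than in Col-0, with log2 differences from -0.63 to 0.75, the highest being the MADS-box gene AGL42. Around AT5G07230, 6 were tested, with 1 higher and 1 lower, from -0.34 (IQD24, the next gene) to 0.21, the latter being EMS1, which lies 5 genes away. Around AT3G52130, 15 were tested, with 1 higher and 2 lower, from -0.31 to 0.27.

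**Figure D5:**
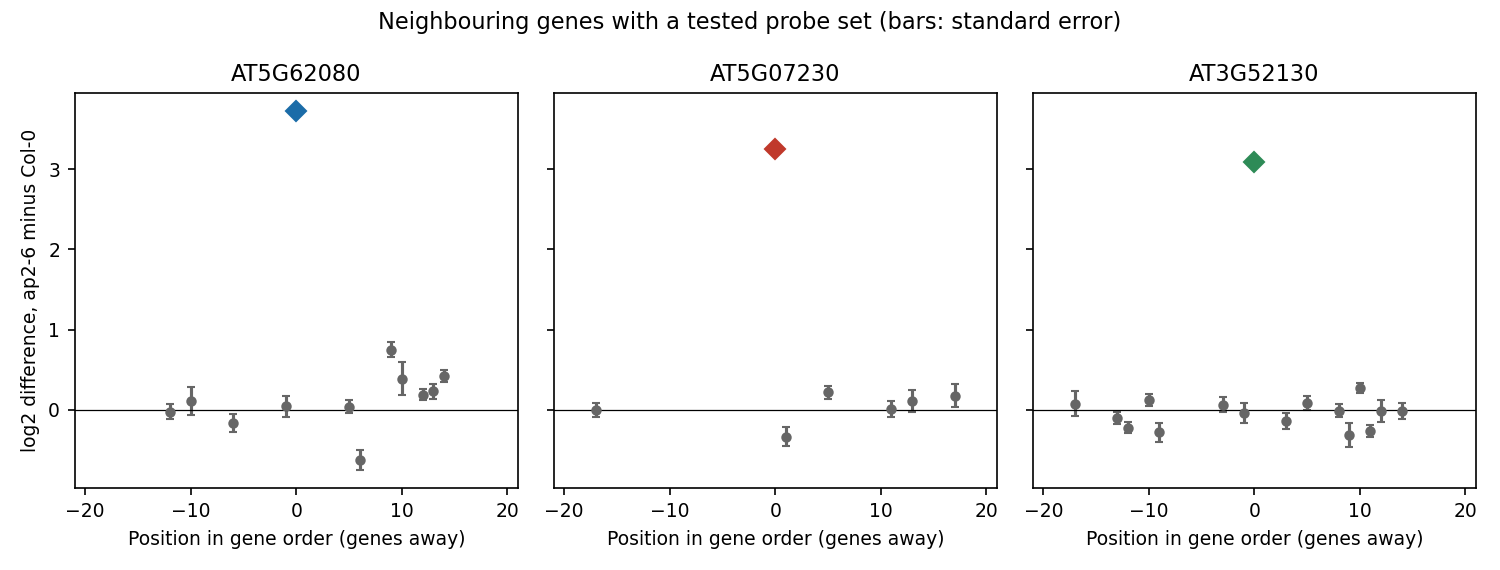
Log2 difference of ap2-6 from Col-0 (vertical axis) for tested genes within 20 genes of each of the 3 genes, by position in gene order (horizontal axis); bars are standard errors and the coloured diamond is the gene itself. The neighbours run from -0.63 to 0.75, and the 3 genes sit at 3.72, 3.25 and 3.09.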

How the data were processed

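The 42 arrays were labelled with biotin, per the labels, and the deposited values are signals (intensity on a linear scale, 1 value per probe set and array); the submitters' processing notes name MAS5, and the sources used here do not give its settings. Without 2% of values at each end, the mean signal was 100.0 on every array, and the number of arrays limits the precision. Probe sets were named through the platform annotation and RefSeq loci, and 64 AFFX controls were left out of tests. Values were analysed as log2(signal + 8.01). Probe sets exceeding the 40th percentile of the array on at least 3 arrays were fitted with limma 3.58.1 in R 4.3.3 (lmFit, eBayes with trend; two-sided; Benjamini-Hochberg over all probe sets of a contrast; threshold 0.05), as 24 inflorescence arrays (14630 probe sets) and 21 Col-0 arrays (16039). The code was tested on simulated data. A gene with several probe sets was read from the one with the highest mean signal.

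The 3 genes and the lists were chosen with earlier results of these data known. In each contrast up to 4 called genes per list were named, and others by value only; 5 genes were named per pattern. Alternatives changed scaling, offset, filter, variance model, arrays fitted, replicate block and reference.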

Additional observations from a re-analysis of the deposited data

How the results depend on the processing

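The described differences of ap2-6 from Col-0 changed most with the offset: divided by 4 they were 4.40 for AT5G62080, 4.65 for AT5G07230 and 4.19 for AT3G52130, and multiplied by 4 they were 2.53, 1.76 and 1.74. Over the alternatives, AT5G62080 was called in 8 to 12 of 21 contrasts, AT5G07230 in 6 to 7 and AT3G52130 in 0. For AT5G62080, quantile normalization ended the ap3-6 and ag-12 calls against Col-0 (adjusted p 0.062 and 0.053, limma), as did the offset multiplied by 4 (0.054 and 0.065), and the offset divided by 4 ended the ap1-15 call (0.11); the cause was not tested. With clv3-7 in place of Col-0 as the reference, the ap3-6 and ag-12 differences were -1.05 and -1.002 and that of AT5G07230 in ufo-1 was 0.86. List genes called in ap2-6 against Col-0 numbered 8, 5 with the filter at the 60th percentile, where fewer genes were tested, and 5 to 8 with single arrays left out, the lowest without ap2-6 replicate 3. Leaving out an ap2-6 array also leaves the 3 genes and AMS with fewer than 3 arrays above the filter, so the 3 genes' differences were then computed without it. The replicate letters are shared by the groups, but same-letter arrays of different groups deviated from their group means with a median correlation of -8e-04, and 7 of 24 arrays correlated best with their own letter. The letter as a replicate block left the 3 genes' calls at 11, 6 and 0 and changed 1 list gene, EMS1 (adjusted p 0.051, limma), leaving 7 list genes called. Organ contrasts of the 3 genes were run only without the filter, where 2, 1 and 0 of 21 were called. The share of all probe sets called in those contrasts was not computed, so nothing is read from these counts. Scaling, offset and leave-one-out alternatives were not run for the organ contrasts. Signals below the offset limit every statement on levels outside ap2-6. No result changed direction in the alternatives run.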
